A study of Bos taurus with 94 samples.

Results

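S100A8, S100A12 and S100A9 are the 3 calgranulin genes examined here across bovine tissues, taken from the deposited table by their Ensembl identifiers ENSBTAG00000012640, ENSBTAG00000012638 and ENSBTAG00000006505. They are 3 of 24616 genes measured by RNA sequencing in 94 libraries of Hereford cattle, all with the age label adult (the fetal testis included) and with no treatment or genotype in the labels. The tissues had been collected for an earlier study, and the series was built as a resource for interpreting genetic association signals in cattle. Nearly every library is the only one of its tissue, so libraries were placed by label into 34 anatomical groups, 19 of them with 2 or more libraries, so that most replicates are neighbouring tissues and not repeats of 1 tissue. No animal is named in the labels, and any spread given below is one between libraries. The genes were chosen because earlier results on these files showed them high in tongue, esophagus, eye cancer and white blood cells. Their levels are therefore given as a description, without a test between tissues. A rule that flags a library far from the others of its group was applied to them and is given at the end.

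Several libraries stood apart from their labels over all genes, and they keep their label as a name throughout. Diaphragm and Gall_Bladder were nearly alike, Adrenal was closest to Lymph_nodes, Bone_marrow to the vesicular gland and bulbourethral_gland to the cancer eye, and the libraries labelled CorpusLuteum and Chorid_plexus were closest to muscles. Results that rest on them are given with this beside them. FPKM totals of the libraries ran from 585122 to 1062591.

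S100 proteins are small calcium-binding proteins. S100A8 and S100A9 pair into calprotectin, which binds zinc and manganese and thereby withholds them from microbes, and S100A12, also called calgranulin C or EN-RAGE, is a related secreted protein. The 3 genes are known as abundant products of neutrophils and monocytes, and keratinocytes of stratified squamous epithelium make S100A8 and S100A9 constitutively at mucosal surfaces or on injury. Outside the cell these proteins act as alarmins, danger signals read by the receptors TLR4 and RAGE.

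In the RefSeq gene table of the assembly ARS-UCD2.0, S100A12 lies between S100A8 and S100A9 with 0 annotated genes in either gap, so the 3 are direct neighbours. The deposited values rest on the older build UMD3.1, for which no coordinates were used here. The genes are relatives with similar coding sequences, and how reads shared between them were assigned by the authors' counting was not tested.

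A few libraries held nearly all of the signal of the 3 genes. Levels are in FPKM, fragments mapped to a gene corrected for transcript length and library size, which allows genes of different length to be compared within a library. S100A12 had a median of 13.2 FPKM over 94 libraries and a maximum of 40664. S100A8 had a median of 3.39 FPKM and a maximum of 16699, and S100A9 a median of 2.54 and a maximum of 10825. The 10 highest libraries held 94.8% of the summed FPKM of S100A12, 95.6% of that of S100A8 and 96.9% of that of S100A9. At 1000 FPKM or more there were 13 libraries for S100A12, 10 for S100A8 and 7 for S100A9. All 3 genes passed the filter on low values (1 FPKM or more in at least 3 libraries), as did 18031 genes in all; S100A12 reached 1 FPKM in 88 libraries, S100A8 in 70 and S100A9 in 64.

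**Figure D1:**
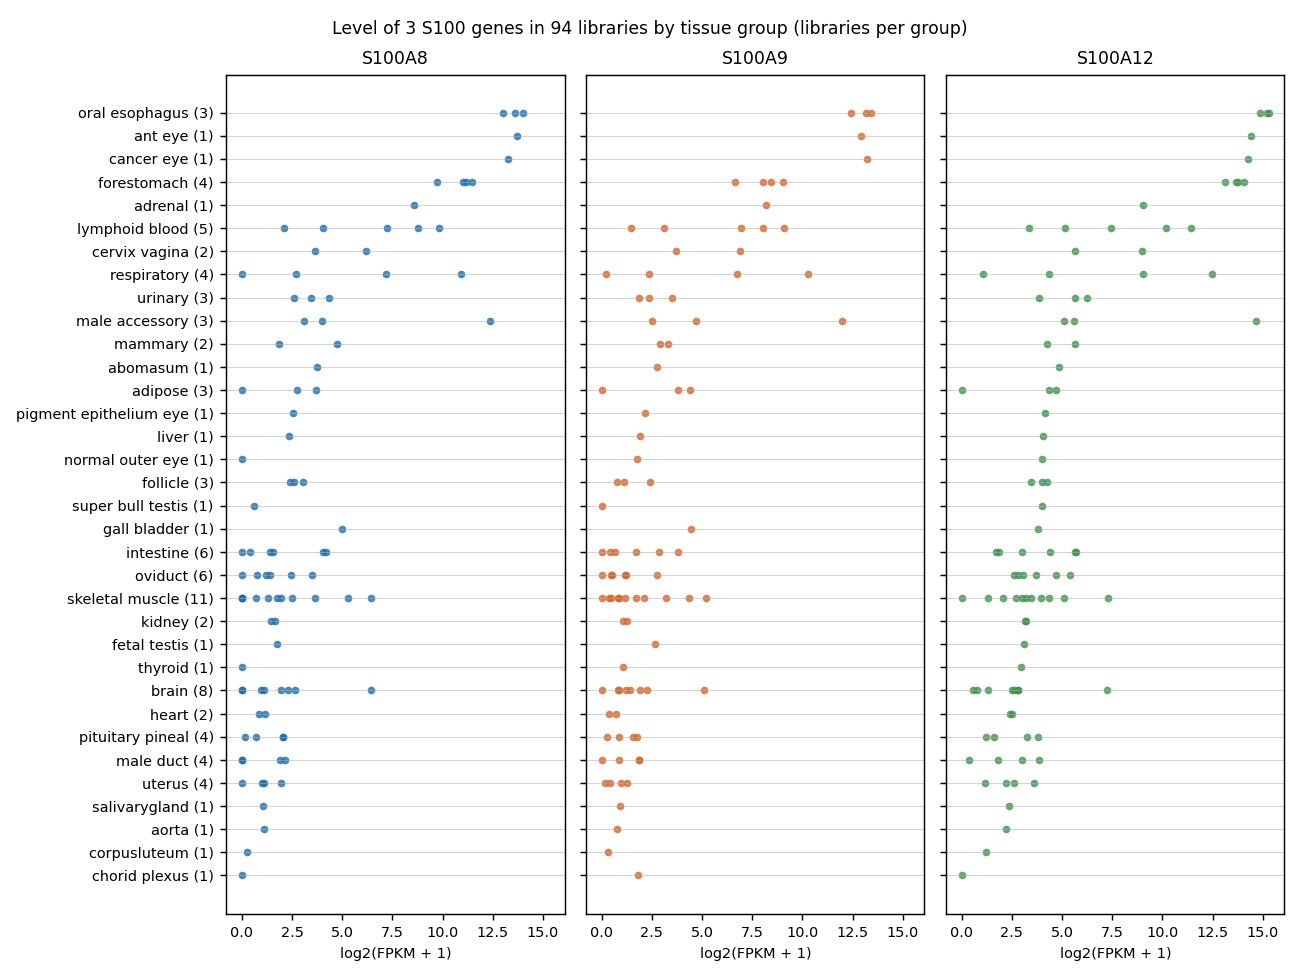
Each point is 1 library, placed by its level as log2(FPKM + 1) on the horizontal axis and by its tissue group on the vertical axis, with the number of libraries per group in brackets. Tongue and esophagus, the library labelled Ant_Eye and the cancer eye sit at the top for all 3 genes, while single libraries of the respiratory, male accessory, brain and muscle groups stand away from the rest of their group.

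The superficial tongue, the lower tongue and the esophagus, lined by stratified squamous epithelium, had the highest S100A12 levels of all libraries. S100A12 stood at 40664 FPKM in the superficial tongue, 38252 in the lower tongue and 29513 in the esophagus (36143 ± 5867, SD, n = 3). S100A8 stood at 16699, 12640 and 8315 FPKM in the same order (12551 ± 4193, SD, n = 3). S100A9 stood at 10825, 9264 and 5516 FPKM (8535 ± 2729, SD, n = 3). The esophagus was the lowest of the 3 libraries for every gene. Because these are bulk samples, more cells of a type and more RNA per cell cannot be told apart here or below.

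At these levels the 3 transcripts were among the most abundant of the tissue. In the superficial tongue S100A12 ranked 1st, S100A8 ranked 4th and S100A9 ranked 7th of 24616 genes, and together they took 8.83% of all FPKM. Their joint share was 7.95% in the lower tongue and 6.31% in the esophagus, where S100A12 ranked 2nd in both libraries. The library of inner tongue muscle was far lower, although the superficial and lower tongue libraries carried muscle genes too. On skeletal muscle genes the superficial tongue scored 5.97 and the lower tongue 4.69, against 8.42 in the internal tongue muscle and a median of 1.09 outside the muscle group (the score is explained below). In the library labelled Internal_tongue_muscle S100A8 was at 85.7 FPKM, S100A12 at 153 and S100A9 at 36.2, so the superficial tongue held 195, 266 and 299 times as much. Of the 18031 genes tested, 9.26% were higher in the superficial tongue than in the internal tongue muscle by at least 2 on the log2(FPKM + 1) scale. Within the muscle group the internal tongue muscle was the highest of 11 libraries for all 3 genes, and its closest profile was the library labelled CorpusLuteum (Spearman's rho 0.915 over the 18031 genes).

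**Figure D2:**
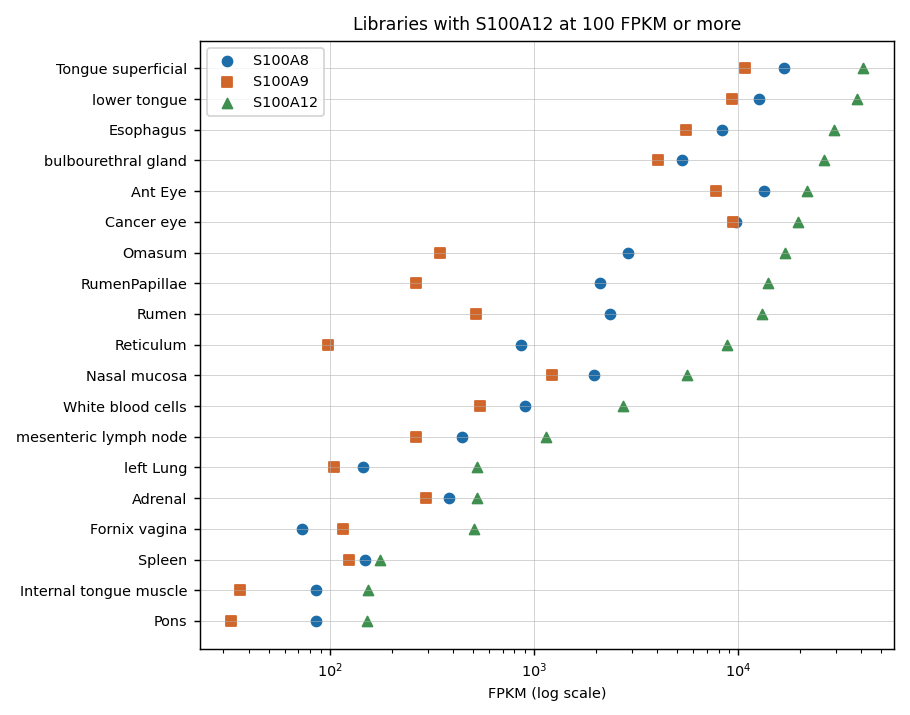
The 19 libraries with S100A12 at 100 FPKM or more, ordered by that level; the horizontal axis is FPKM on a log scale, with circles for S100A8, squares for S100A9 and triangles for S100A12. S100A12 is the highest of the 3 in every library shown, and S100A9 lies far to the left in the 4 forestomach libraries, between 97.8 and 519 FPKM.

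The forestomach, also a stratified squamous lining, carried much S100A12 but little S100A9 relative to it and to the tongue. S100A12 stood at 16871 FPKM in the omasum, 13979 in the rumen papillae, 13029 in the rumen and 8799 in the reticulum. S100A8 stood at 2879, 2097, 2336 and 858 FPKM in the same order. S100A9 stood at 346, 263, 519 and 97.8 FPKM, which is still far above its median of 2.54 over all libraries. For all 3 genes every tongue and esophageal library lay above every forestomach library, which was also so for 8.85% of the 18031 genes tested. The difference in mean log2(FPKM + 1), tongue and esophagus minus forestomach, was 1.48 for S100A12, 2.69 for S100A8 and 4.97 for S100A9. With quantile normalization it was 0.88 for S100A12, and 3.16 and 4.86 for the other genes.

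The ratio between the calprotectin partners can be read within a library, where it does not depend on how libraries are scaled to each other. The ratio of S100A9 to S100A8 was 0.648 in the superficial tongue, 0.733 in the lower tongue and 0.663 in the esophagus (0.682 ± 0.0451, SD, n = 3). It was 0.222 in the rumen, 0.126 in the rumen papillae, 0.12 in the omasum and 0.114 in the reticulum (0.145 ± 0.0513, SD, n = 4). The groups did not overlap, with less S100A9 per S100A8 in the forestomach, and the mean log2 ratio was 2.28 higher in tongue and esophagus, or 2.19 to 2.51 with each library left out in turn. Over all genes the esophagus was closest to the reticulum (rho 0.930), yet its S100A9 was 56.4 times that of the reticulum, its S100A8 9.69 times and its S100A12 3.35 times. Between these libraries 1.64% of genes were higher in the esophagus by at least 2 on the log2(FPKM + 1) scale.

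In 26 libraries all 3 genes were at 10 FPKM or more, and the 4 forestomach libraries had the lowest S100A9 to S100A8 ratios among them. In the 22 others the ratio ran from 0.385 in the pons to 1.67 in subcutaneous fat, with a median of 0.697. White blood cells were at 0.606, the mesenteric lymph node at 0.599 and the nasal mucosa at 0.625. The spleen was at 0.83, the descending colon at 0.766, and the cervical lining and the fornix of the vagina were above 1, at 1.05 and 1.59. Below that level the ratio scattered more widely. It was 0.0987 in follicle replicate 2, where S100A8 was at 7.14 FPKM and S100A9 at 0.704. Ratios of low values are imprecise, since the read depth behind them is unknown.

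**Figure D3:**
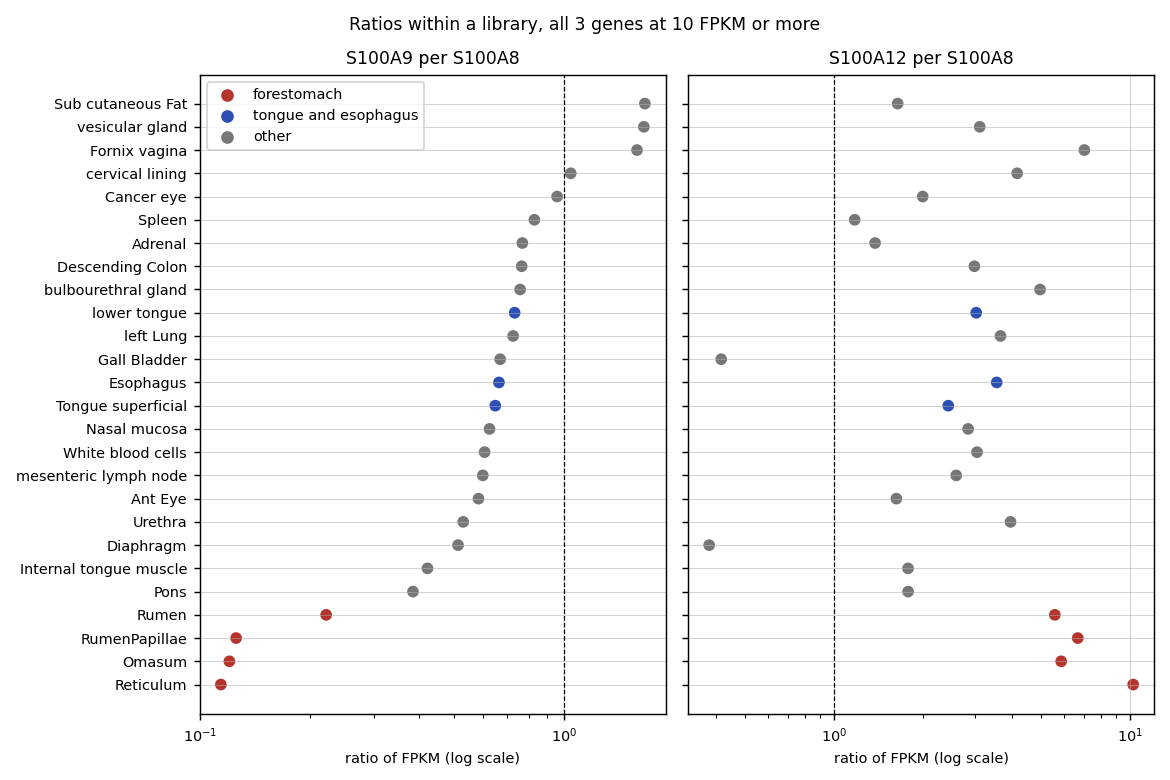
Ratio of FPKM within a library, on log scales, in the 26 libraries with all 3 genes at 10 FPKM or more; left S100A9 per S100A8, right S100A12 per S100A8, with the dashed line at a ratio of 1. The forestomach libraries (red) hold the 4 lowest S100A9 ratios, 0.114 to 0.222, and the diaphragm and gall bladder the lowest S100A12 ratios, 0.38 and 0.417.

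S100A12 was usually the most abundant of the 3. It was the highest in 86 of the 92 libraries in which at least 1 of the genes was above 0, and the order S100A12, S100A8, S100A9 held in 20 of the 26 libraries above. In 4 of the other 6, S100A9 exceeded S100A8: the fornix of the vagina (115 against 72.5 FPKM), the cervical lining (12.1 against 11.6), the vesicular gland (25.2 against 15.1) and subcutaneous fat (19.8 against 11.8). In subcutaneous fat S100A9 was also slightly above S100A12 (19.8 against 19.4 FPKM). In the remaining pair of libraries, S100A8 was the highest. The library labelled Diaphragm had S100A8 at 38.2, S100A9 at 19.6 and S100A12 at 14.5 FPKM, and the gall bladder had 31.2, 20.9 and 13 FPKM. These 2 libraries were also the most alike of all 4371 pairs over all genes (rho 0.994), and the diaphragm scored 0.45 on the muscle genes described below, against 8.42 or more in the other muscle libraries. Its label and its profile thus disagree, and these values are values of the library labelled Diaphragm.

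In the eye, the libraries fell into high and low ones with nothing between. The cancer eye had S100A8 at 9783 FPKM, S100A9 at 9382 and S100A12 at 19533. The library labelled Ant_Eye had 13364, 7788 and 21743 FPKM. The normal outer eye layer, taken 1 cm from a cancer, had S100A8 listed at 0, S100A9 at 2.36 FPKM and S100A12 at 15.3. The pigment epithelium had 4.77, 3.48 and 16.8 FPKM.

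The cancer eye exceeded the normal outer layer 3982-fold in S100A9 and 1281-fold in S100A12, and no fold is given for S100A8, which was listed at 0. A listed 0 may stand for an estimate that failed. All 3 genes passed a log2(FPKM + 1) difference of 2 in this pair, as did 9.16% of the genes tested. The differences of 13.26 for S100A8, 11.45 for S100A9 and 10.23 for S100A12 ranked 1st, 8th and 15th of 18031. As the genes were chosen partly for their level in eye cancer, nothing is read from these ranks. With 1 library each, this pair compares 2 libraries and not the conditions. The cancer eye also scored 8.62 on genes of tongue and esophagus, and the normal outer layer 0.501. The closest profile of the cancer eye was the superficial tongue (rho 0.923), and that of the normal outer layer was the prostate, labelled prostrate (rho 0.922). The part of epithelial content in the S100 difference was not tested. The cancer eye had the highest S100A9 to S100A8 ratio of the libraries above 1000 FPKM in all 3 genes, 0.959, while Ant_Eye had 0.583.

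Ant_Eye exceeded the pigment epithelium 2803-fold in S100A8, 2236-fold in S100A9 and 1297-fold in S100A12, where 5.71% of genes passed the same difference of 2. S100A12 was the most abundant and S100A8 the next most abundant transcript of Ant_Eye. Its level of S100A8 and S100A9 lay within the range of the tongue and esophageal libraries, as did that of the cancer eye, whereas S100A12 in both was below the lowest of them. The score of Ant_Eye on tongue and esophagus genes was 2.89, well below that of the cancer eye and within the range of the 4 forestomach libraries, 2.25 to 3.20.

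Glandular and airway libraries held further high values. The library labelled bulbourethral_gland had S100A8 at 5298 FPKM, S100A9 at 4020 and S100A12 at 26339, where S100A12 was the second most abundant gene. The other male accessory glands were at 7.6 to 15.1 FPKM for S100A8 and 32.8 to 47.1 for S100A12. The bulbourethral library was closest to the cancer eye over all genes (rho 0.917) and scored 4.40 on tongue and esophagus genes, against 0.441 in the vesicular gland and 0.97 in the prostate. Whether this library holds squamous lining beside gland was not tested. The nasal mucosa had S100A8 at 1962 FPKM, S100A9 at 1226 and S100A12 at 5575. The trachea had S100A8 listed at 0, S100A9 at 0.15 FPKM and S100A12 at 1.06, and the larynx had 5.57, 4.06 and 19.3 FPKM. The larynx library, labelled Larynx_cartilage, scored 8.85 on skeletal muscle genes and was closest to the internal tongue muscle (rho 0.893). The trachea was closest to the aorta (rho 0.976), and the part of airway lining in these libraries was not tested. Of the genes tested, 4.26% were higher by at least 2 in the bulbourethral than in the vesicular gland, and 5.57% in the nasal mucosa than in the trachea. The fornix of the vagina was above the cervical lining, 6.26-fold in S100A8, 9.53-fold in S100A9 and 10.6-fold in S100A12, beside 0.505% of genes past a difference of 2.

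White blood cells, which normally include the neutrophils and monocytes known for these genes, were well below tongue and esophagus and overlapped the forestomach in S100A8. They had S100A8 at 896 FPKM, S100A9 at 543 and S100A12 at 2730, and S100A12 ranked 27th of all genes there. Against the forestomach, S100A12 was lower in white blood cells than in all 4 libraries, S100A8 was above the reticulum alone, and S100A9 was above all 4. The mesenteric lymph node had 442, 265 and 1145 FPKM, the spleen 149, 123 and 175, and the library labelled Lymph_nodes 15.4, 7.55 and 34.8. Bone marrow, where neutrophils are formed, had 3.27, 1.72 and 9.21 FPKM, the lowest of the 5 lymphoid and blood libraries for every gene and close to the median of all tissues. White blood cells exceeded bone marrow 274-fold in S100A8, 316-fold in S100A9 and 296-fold in S100A12, beside 7.2% of genes higher in blood by at least 2 on the log2(FPKM + 1) scale.

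The profile of the bone marrow library went against its label. Its closest library was the vesicular gland (rho 0.922), which was itself closest to subcutaneous fat (rho 0.970). The bone marrow library scored 1.73 on lymphoid and blood genes against 4.96 to 6.09 in the other 4 libraries of the group. It scored 6 on skeletal muscle genes against a median of 1.09 outside the muscle group. The low S100 values are therefore those of the library labelled Bone_marrow, and its part of marrow cells was not tested. The library labelled Adrenal went the other way. It was closest to Lymph_nodes (rho 0.973), scored 6.09 on lymphoid and blood genes, and had S100A8 at 381 FPKM, S100A9 at 293 and S100A12 at 526.

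The lymph node libraries differed between themselves. The mesenteric node exceeded Lymph_nodes 28.7-fold in S100A8, 35-fold in S100A9 and 33-fold in S100A12, beside 0.937% of genes past a difference of 2. Both scored high on lymphoid and blood genes, 5.64 and 6.09. The mesenteric node also scored 5 on genes of tongue and esophagus, and Lymph_nodes scored 0.462. Whether the S100 level of the mesenteric node comes from the same source as those genes was not tested. The left lung, at 144, 105 and 527 FPKM for S100A8, S100A9 and S100A12, scored 0.146 on tongue and esophagus genes and 3.97 on lymphoid and blood genes.

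These scores average log2(FPKM + 1) over the 50 genes that best separate a class of libraries from the rest, chosen without the scored library and without the 3 S100 genes. The gene list therefore differs between a library of the class and the rest, and their scores are not on 1 common list. They stand in for marker lists, because the deposited identifiers could not be paired with gene names. The median score outside the class was 0.27 for tongue and esophagus and 1.04 for lymphoid and blood. Libraries with much S100 RNA were found with a high tongue and esophagus score and a low lymphoid score, as in the tongue and the cancer eye, and with the reverse, as in white blood cells and Adrenal. Others had much S100 RNA with lower values of both scores. Ant_Eye, the second highest library for S100A8, scored 2.89 on tongue and esophagus genes and 1.43 on lymphoid and blood genes, and the nasal mucosa scored 1.58 and 1.78. On tongue and esophagus genes the 4 forestomach libraries, also squamous, scored 2.25 to 3.20, and the esophagus itself 4.80. Lymph_nodes and Adrenal both scored 6.09 on lymphoid and blood genes and had S100A8 at 15.4 and 381 FPKM. Lymph_nodes belongs to the class and Adrenal does not, so these scores are not on 1 common list and cannot be equated.

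**Figure D4:**
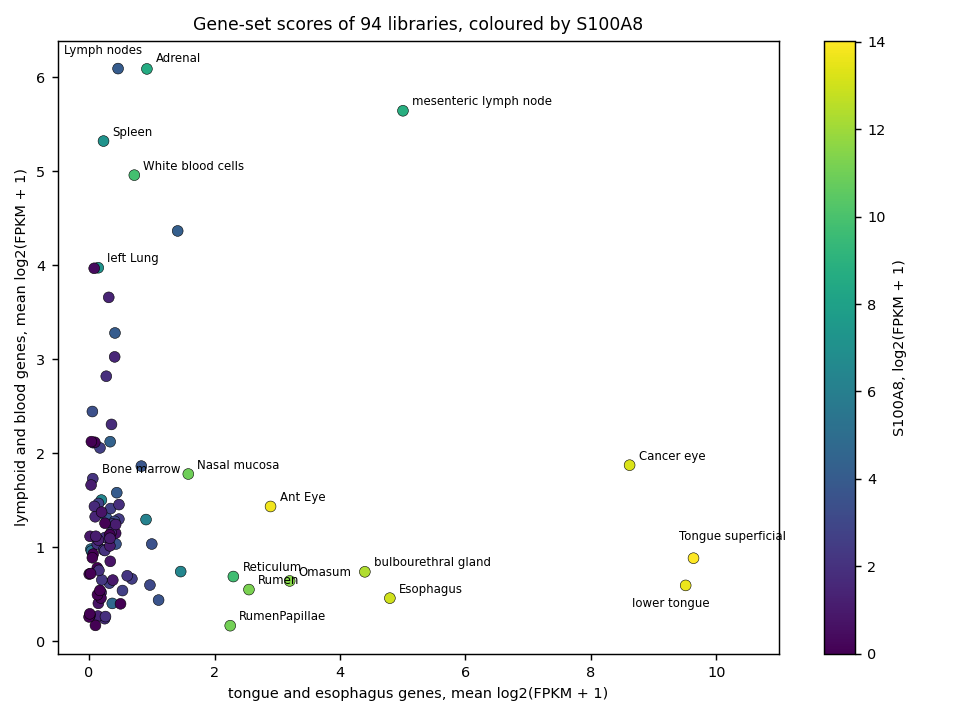
Each of 94 points is a library, placed by its score on tongue and esophagus genes (horizontal) and on lymphoid and blood genes (vertical), both as mean log2(FPKM + 1) over 50 genes, and coloured by S100A8. Names are given for libraries with S100A8 at 100 FPKM or more and for Bone_marrow and Lymph_nodes; the mesenteric lymph node stands alone with a score of 5 or more on both axes.

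At the low end, S100A8 was listed at 0 in 15 libraries, S100A9 in 7 and S100A12 in 3. All 3 were listed at 0 in semimembranosus muscle and mammary gland fat. Most brain, pituitary, uterine, oviduct and muscle libraries were at single-digit or lower FPKM for S100A8 and S100A9. The pons was the exception in brain, with S100A8 at 85.2 FPKM, S100A9 at 32.8 and S100A12 at 152, while the highest of the other 7 brain regions reached 5.2 FPKM for S100A8, 3.82 for S100A9 and 5.96 for S100A12. The pons scored 0.196 on tongue and esophagus genes and 1.5 on lymphoid and blood genes. The other 7 brain regions scored 0.13 to 0.53 on the former and 0.496 to 0.755 on the latter. The pons was thus also the highest brain region on lymphoid and blood genes, and what lies behind this was not tested. Beside its closest library, the thalamus (rho 0.872), 3.54% of genes were higher by at least 2 in the pons.

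**Figure D5:**
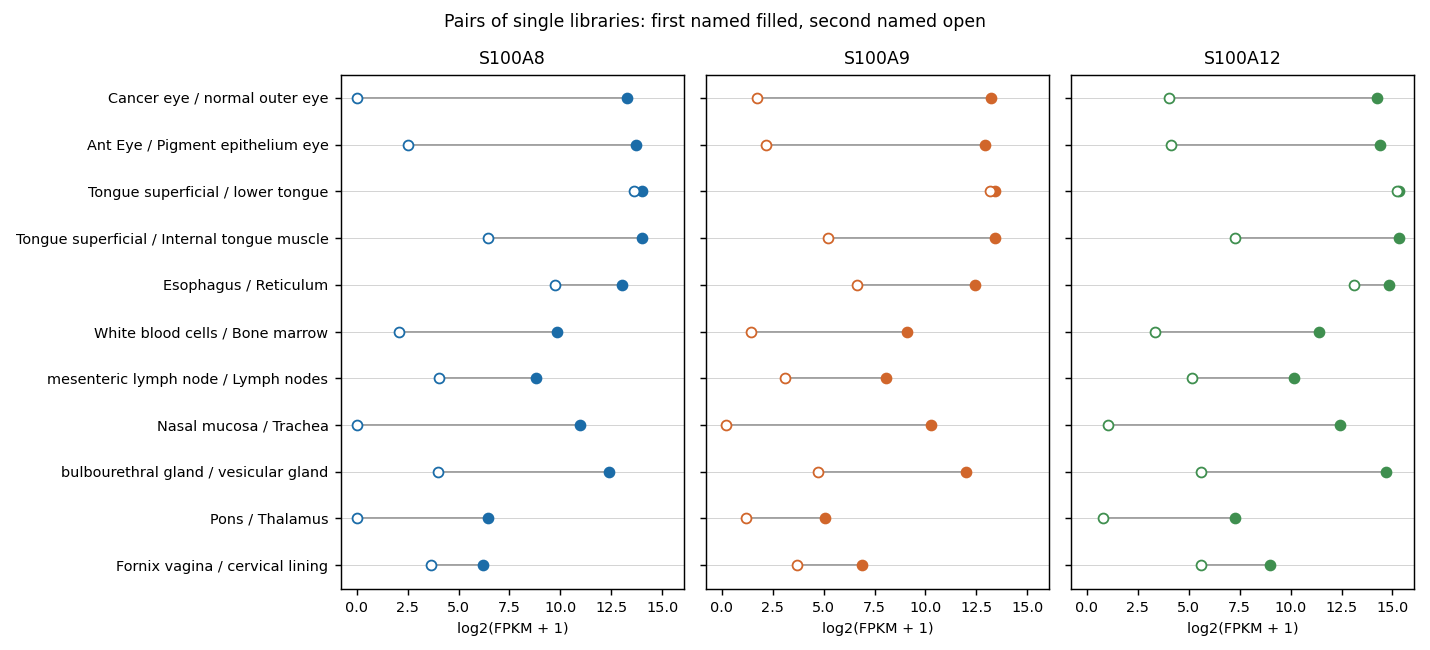
Levels as log2(FPKM + 1) in 11 pairs of single libraries, with the first-named library filled and the second open, and a line joining them. The superficial and lower tongue nearly coincide, whereas the cancer eye and the normal outer eye layer lie 10.23 to 13.26 apart.

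The superficial and lower tongue were the only pair of the 11 in which none of the genes differed by 2 on the log2(FPKM + 1) scale. Their differences were 0.40 for S100A8, 0.22 for S100A9 and 0.09 for S100A12, all toward the superficial tongue, beside 0.211% of genes that passed. With 1 library each there is no error for these differences.

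The 3 genes followed each other more closely than any other gene followed them. Over the 94 libraries Pearson's r of log2(FPKM + 1) was 0.976 for S100A8 with S100A9, 0.976 for S100A8 with S100A12 and 0.95 for S100A9 with S100A12. For each gene the other two ranked 1st and 2nd among 18030 genes, by Pearson's r and by Spearman's rho. The highest r of any further gene was 0.851 with S100A8, 0.872 with S100A12 and 0.841 with S100A9. Without the tongue, esophagus, cancer eye, bone marrow and white blood cell libraries the 3 values were 0.966, 0.964 and 0.929 (88 libraries), and the order of ranks was the same. Among the 75 libraries with S100A12 under 100 FPKM they were 0.861, 0.827 and 0.723, and ranks among all genes were not taken there. These are descriptions over libraries that share tissues and one processing. Reads shared between related genes could add to these values, as could the choice of the 3 genes as high in the same tissues.

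By mean Pearson's r over the 3 genes the closest others were ENSBTAG00000039504 (0.852) and ENSBTAG00000039967 (0.85), which the files do not name. Spearman's rho of ENSBTAG00000039504 was lower, 0.613 with S100A8, 0.679 with S100A12 and 0.599 with S100A9. That of ENSBTAG00000039967 was 0.698, 0.731 and 0.703 in the same order. The highest rho of any further gene was 0.711, 0.762 and 0.703, so ENSBTAG00000039504 was not the closest by rho. ENSBTAG00000039504 stood at 30030 FPKM in the superficial tongue, 21410 in the lower tongue, 17320 in the esophagus, 8414 in the cancer eye and 887 in the mesenteric lymph node. In white blood cells it was at 20 FPKM and in Adrenal at 10.5. ENSBTAG00000039967 was at 1813, 1698 and 2261 FPKM in tongue and esophagus, 35.9 in the mesenteric lymph node and 0.429 in white blood cells. In the other libraries high in the S100 genes the likeness was partial. ENSBTAG00000039504 was at 1065 FPKM in bulbourethral_gland, 862 in Ant_Eye and 394 in the nasal mucosa. ENSBTAG00000039967 was at 13.3, 157 and 6.56 FPKM there. Both were high in tongue and esophagus and far lower in white blood cells, where the 3 S100 genes stood at 543 FPKM or more.

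For the classes as a whole, the mean difference in log2(FPKM + 1) between tongue and esophagus and the other 91 libraries was 10.38 for S100A8, 10.20 for S100A9 and 10.50 for S100A12. In this comparison limma, at an adjusted p below 0.05 and a difference of 1 or more on the log2 scale, called 469 genes higher and 122 lower, so 2.6% of genes were called higher; a model of group means gave 894 higher and 1152 lower, which turned the balance. Between lymphoid and blood libraries (n = 5) and the other 89, the mean differences were 3.05, 2.74 and 2.69. They were 4.26, 3.97 and 3.78 without bone marrow and the other libraries that stood apart, a choice made after seeing the data. Leaving out 1 library of the class moved the S100A8 difference from 2.19 without white blood cells to 4.12 without bone marrow. Here limma called 1660 genes higher and 158 lower, and 9.21% were called higher; quantile normalization gave 1324 and 416, and group means 2067 and 890. Between tongue and esophagus and the forestomach it called 419 higher and 636 lower, or 2.32% higher, and 466 and 465 after rescaling to equal totals. Since the S100 genes were chosen for these patterns, nothing is read from their place among the called genes.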

How the data were processed

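RNA sequencing values of 94 libraries were taken from 1 table. The deposited unit is FPKM, per the file name. HISAT2, StringTie and the build UMD3.1 are named in the submitters' processing notes, without versions. Among genes low in 2 libraries no common step of whole reads appeared (at most 1.3% of 1000 genes shared 1 ratio within 0.5%, over 50 pairs of libraries), so depth is unknown and no counting intervals are given.

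The scale was log2(FPKM + 1), which understates the folds of low genes. Genes at 1 FPKM or more in at least 3 libraries entered two-sided limma tests (version 3.58.1, R 4.3.3, trended empirical Bayes), adjusted by Benjamini-Hochberg over 18031 genes. The step was run on simulated data with independent random noise for each gene and library. Such data do not carry the likeness between neighbouring tissues, so nothing is drawn from them about the counts of genes called. Scores took the 50 genes whose class median lay furthest above the 90th percentile of libraries outside the class. Python 3.11.15, numpy 2.4.6, pandas 2.3.3 and scipy 1.17.1 did the rest. The RefSeq table used lists no Ensembl identifiers (0 matched), so marker and pathway lists were not run and at most 2 further identifiers, those with the highest mean r, are named. The members, lists, pairs of libraries and classes were chosen with earlier results of these data known. Alternatives were a model of group means, quantile normalization, equal totals, a pseudocount of 0.1, no filter, and each library left out. Leaving out several libraries at once was added after seeing the data.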

Additional observations from a re-analysis of the deposited data

Results flagged for a closer look

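Among 27 sets of a gene and a group of 4 to 10 libraries, 3 held a library far from the others of its group on the log2(FPKM + 1) scale, all of them the pons among 8 brain regions. S100A8 was at 85.2 FPKM there and at 0 to 5.2 in the other regions, S100A12 at 151.9 against 0.463 to 5.96, and S100A9 at 32.8 against 0 to 3.82. The gap to the next region was 0.59, 0.664 and 0.553 of the whole range, above the limit for 8 libraries. Chance flags about 1 group in 20, and the 3 genes follow each other, so these are not separate observations. The cause was not tested.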

How the results depend on the processing

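No setting reversed a difference of the 3 S100 genes between classes. In tongue and esophagus against the rest, the log2 differences of S100A8, S100A9 and S100A12 were 11.26, 10.99 and 10.81 with a pseudocount of 0.1, and 11.21, 10.9 and 11.38 without the forestomach, eye, nasal and bulbourethral libraries, a choice made after seeing the data. S100A12 gave 9.95 with quantile normalization and 10.24 with group means, and 0.88 against the forestomach with quantile normalization. The ratio of S100A9 to S100A8 kept its direction with each library left out.

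Counts over all genes moved more. Tongue and esophagus against the rest gave 591 genes, and 2046 with group means (894 higher and 1152 lower). Leaving out a library gave 344 (lower tongue) to 404 (esophagus), and 366 without the superficial tongue. Lymphoid and blood gave 1818, and 2957 with group means (2067 and 890). It gave 1196 without white blood cells, 1204 without the mesenteric lymph node and 2368 without bone marrow; quantile normalization gave 1324 higher and 416 lower. Tongue and esophagus against forestomach gave 1055, and 451 without the superficial tongue, 520 without the lower tongue, 552 without the rumen, 611 without the reticulum and 1410 without the esophagus; quantile normalization gave 590 higher and 594 lower. Genes at least 2 higher in the cancer eye numbered 1651, and 3517 with a pseudocount of 0.1. The cause was not tested. No paired analysis was possible because the labels name no animal. Unknown depth limits what can be said of values near 0.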
